A study of Mus musculus with 6 samples.

Results

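The 10 genes described here are the Notch receptors Notch1, Notch2 and Notch3, the ligands Jag1 and Dll1, the coactivator Maml2 and the target genes Hes1, Hey1, Hey2 and Heyl, out of 19938 genes measured in the stomach of mouse embryos. They were given by symbol, and each was read from the probe set annotated to that symbol alone with the highest mean over the arrays. All 10 were measured. The samples were whole stomachs taken at E13.5, the embryonic day. They fell into 3 arrays from embryos of genotype Nkx3.2Cre;R26-SmoM2, called SmoM2 here, and 3 arrays from wild type embryos. R26-SmoM2 is an allele of the Rosa26 locus that encodes a form of Smoothened that signals without hedgehog ligand, and Nkx3.2Cre is a recombinase expressed from Nkx3-2, a gene of the stomach mesenchyme, so the allele is switched on in those cells and not in every cell of the organ. The labels name no Cre-only or allele-only control. Nor do they state what a replicate was (1 embryo, a litter or a pool), so each p-value rests on variation among arrays, 3 a group, which may be technical in part. The main limma fit also draws the variance of each gene towards a value shared by all genes (variance moderation).

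Notch receptors are membrane proteins that are cut when a ligand on a neighbouring cell binds them. The freed intracellular part enters the nucleus, joins the DNA-binding protein Rbpj and a Mastermind-like coactivator (Maml), and switches on genes of the Hes and Hey families, which encode transcriptional repressors. In the gut, Notch signalling is known for holding epithelial progenitors and enteric neural progenitors undifferentiated, and in blood vessels it acts in endothelial cells and in the pericytes and smooth muscle cells around them, where Hey genes are among its targets.

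Values are log2 signals, on which a difference of 1 is a doubling, and signals of different probe sets are not comparable in level. Array medians ran from 8.56 to 8.62 and olfactory and vomeronasal receptor genes, taken as not expressed in stomach, had array medians from 6.16 to 6.40. The lowest value of any of the 10 Notch genes was 8.75. Barx1 and Nkx3-2, which mark the stomach mesenchyme, stood at 12.53 to 12.67 and 9.83 to 9.91 in SmoM2, against 12.42 to 12.72 and 9.90 to 10.04 in wild type. The genotype showed in the hedgehog targets: Hhip, which binds hedgehog ligands, rose 2.43-fold (limma adjusted p = 0.000175), and the receptor gene Ptch1 rose 1.40-fold (limma adjusted p = 0.0174), a call lost in 3 of 6 fits without 1 array (up to an adjusted p of 0.102) and once the mean Y-linked signal entered the fit (limma adjusted p = 0.325). Gli1, a transcription factor of the pathway, was at 10.47 ± 0.12 in SmoM2 and 10.05 ± 0.13 in wild type (SD, n = 3 each; limma adjusted p = 0.0727). The arrays also differed in sex-linked genes. The mean of 3 Y-linked genes was 8.71, 8.94 and 9.27 in SmoM2 arrays 1 to 3, against 10.37, 9.92 and 9.07 in wild type arrays 1 to 3, and Xist was at 11.93, 12.37 and 11.43 against 7.11, 11.94 and 11.68. The Y-linked mean was higher in wild type arrays 1 and 2 than in any SmoM2 array, so it went partly with genotype. A fit with the Y-linked mean as a covariate therefore cannot fully separate sex-linked signal from genotype. Wild type 2 stood high in both Xist and the Y-linked mean, and whether a sample held embryos of both sexes was not tested.

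Of the 10 genes, 2 fell in SmoM2, Hey2 and Maml2, 0 rose and 8 did not pass the threshold of an adjusted p of 0.05 in limma, where the adjustment runs over all 19938 genes. Over all genes 0.983% passed (0.657% lower and 0.326% higher), and 10.5% had an unadjusted p below 0.05. In 9 of the 10 the change was negative, and in 7 every SmoM2 value lay below every wild type value, which over all genes held for 10.1%. In 0 of them did every SmoM2 value lie above every wild type value (5.64% of all genes), and in either direction 15.7% of all genes had groups that did not overlap. The median log2 change of the 10 was -0.24, against 0.00 over all genes, whose 5th and 95th percentiles were -0.24 and 0.17. Because the 10 genes were chosen with results of these arrays known, these counts describe them and are not a test of the group. In whole tissue, fewer cells of a type and less RNA per cell cannot be told apart.

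The 2 genes that fell are shown first by the sequence around their start sites, as RefSeq gives it on GRCm38.p6, from 250 bases before to 50 bases after each start. RefSeq windows matched 7 of the 10 genes, by symbol, the others being Hes1, Hey1 and Heyl. Hey2 (chr10:30842734-30843033, minus strand) has 1 window and Maml2 has 2, an upstream start (chr9:13297708-13298007, plus strand) and a start further into the gene (chr9:13662210-13662509, plus strand). Each is written 5′ to 3′ on the strand of the gene, and capitals mark TGGGAA, the core of the motif bound by Rbpj, or its reverse complement TTCCCA.
Hey2: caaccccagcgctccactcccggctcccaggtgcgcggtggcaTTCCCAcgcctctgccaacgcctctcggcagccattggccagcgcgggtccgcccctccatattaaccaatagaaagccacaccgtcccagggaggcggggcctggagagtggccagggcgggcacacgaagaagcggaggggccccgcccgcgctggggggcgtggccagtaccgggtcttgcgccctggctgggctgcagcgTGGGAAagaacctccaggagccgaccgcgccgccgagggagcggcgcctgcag
Maml2 upstream start: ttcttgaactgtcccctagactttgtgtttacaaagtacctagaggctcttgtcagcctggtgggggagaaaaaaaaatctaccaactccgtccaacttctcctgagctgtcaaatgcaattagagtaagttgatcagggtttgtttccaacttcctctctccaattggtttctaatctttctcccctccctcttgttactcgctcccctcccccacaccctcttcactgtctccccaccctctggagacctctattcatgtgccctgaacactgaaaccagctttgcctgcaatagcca
Maml2 internal start: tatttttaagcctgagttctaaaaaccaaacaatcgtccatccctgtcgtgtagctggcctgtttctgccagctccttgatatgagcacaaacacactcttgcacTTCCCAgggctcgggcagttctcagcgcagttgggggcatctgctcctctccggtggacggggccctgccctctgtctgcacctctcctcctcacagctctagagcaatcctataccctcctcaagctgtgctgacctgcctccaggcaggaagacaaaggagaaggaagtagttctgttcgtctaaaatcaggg

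The Hey2 window held the core on both strands, as TTCCCA with its first base 207 bases before the start and as TGGGAA from 3 bases before it, and both matches carried the longer form GTGGGAA. The upstream Maml2 window held 0 cores and the internal one held 1. The core was in 2 of the 9 windows of these genes (22.2%). Searched on both strands in all 32851 windows of the same length, TGGGAA occurred in 25.6%, and GTGGGAA, which contains it, in 6.38%. The binding motif of Gli proteins, searched as TGGGTGGTC on both strands, was in 0.253% of all windows and in 0 of the 9 windows of these genes, and the E-box CACGTG, a palindrome that Hes and Hey proteins can bind, was in 7.15% of all windows and again in 0 of the 9. A match describes letters in the window and does not show a bound site.

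Among the target genes, Hey2 had the largest change of the 10. Hey2 encodes a repressor best known from the heart and the arteries. Its signal was 8.75, 8.89 and 8.94 in SmoM2 arrays 1 to 3, against 9.73, 9.73 and 9.54 in wild type arrays 1 to 3. The groups did not overlap, and the gap between them, 0.59, was wider than the range within either group, 0.19 in SmoM2 and 0.20 in wild type. Hey2 fell 1.75-fold (log2 change -0.80, SE 0.08, 95% interval of the fold 1.53 to 1.99, limma adjusted p = 0.00373) and stood at rank 19 of all genes by p. An exact two-sided permutation test of the 3 against 3 arrays gave p = 0.1, the smallest this design allows. In each of the 6 fits without 1 array Hey2 passed, with log2 changes from -0.87 to -0.75 and limma adjusted p from 0.00205 to 0.0248. With the mean Y-linked signal as a covariate the log2 change was -0.65 (limma adjusted p = 0.0643).

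The other Hey genes showed smaller differences in the same direction. Hey1, a repressor expressed in endothelium and many embryonic tissues, was at 10.04, 10.03 and 10.06 in SmoM2, against 10.41, 10.33 and 10.14 in wild type (log2 change -0.25, SE 0.08, limma adjusted p = 0.272). Its SmoM2 values lay within 0.04 of each other, below all 3 wild type values, of which array 3 was the lowest. Heyl, a family member known from vascular smooth muscle, was at 8.99, 8.94 and 9.13 in SmoM2, against 9.21, 9.27 and 9.26 in wild type (log2 change -0.22, SE 0.07, limma adjusted p = 0.277). Here the wild type values were close together, and SmoM2 array 3 came nearest to them. Neither passed the threshold. The unadjusted 95% intervals of the log2 change, -0.43 to -0.07 for Hey1 and -0.39 to -0.06 for Heyl, did not reach the interval of Hey2, -0.99 to -0.62.

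Hes1, the target most often used as a readout of Notch activity and also induced by other signals, differed by less than the spread of its arrays. It was at 10.32, 10.38 and 10.34 in SmoM2, against 10.39, 10.45 and 10.27 in wild type, and the SmoM2 values lay within the wild type range. Its log2 change was -0.02 (SE 0.07, limma adjusted p = 0.955), and the 95% interval, -0.19 to 0.14, held folds between 0.880 and 1.10. The sign turned to 0.0252 with repeated quantile normalization and to 0.0045 with centring on array medians.

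**Figure D1:**
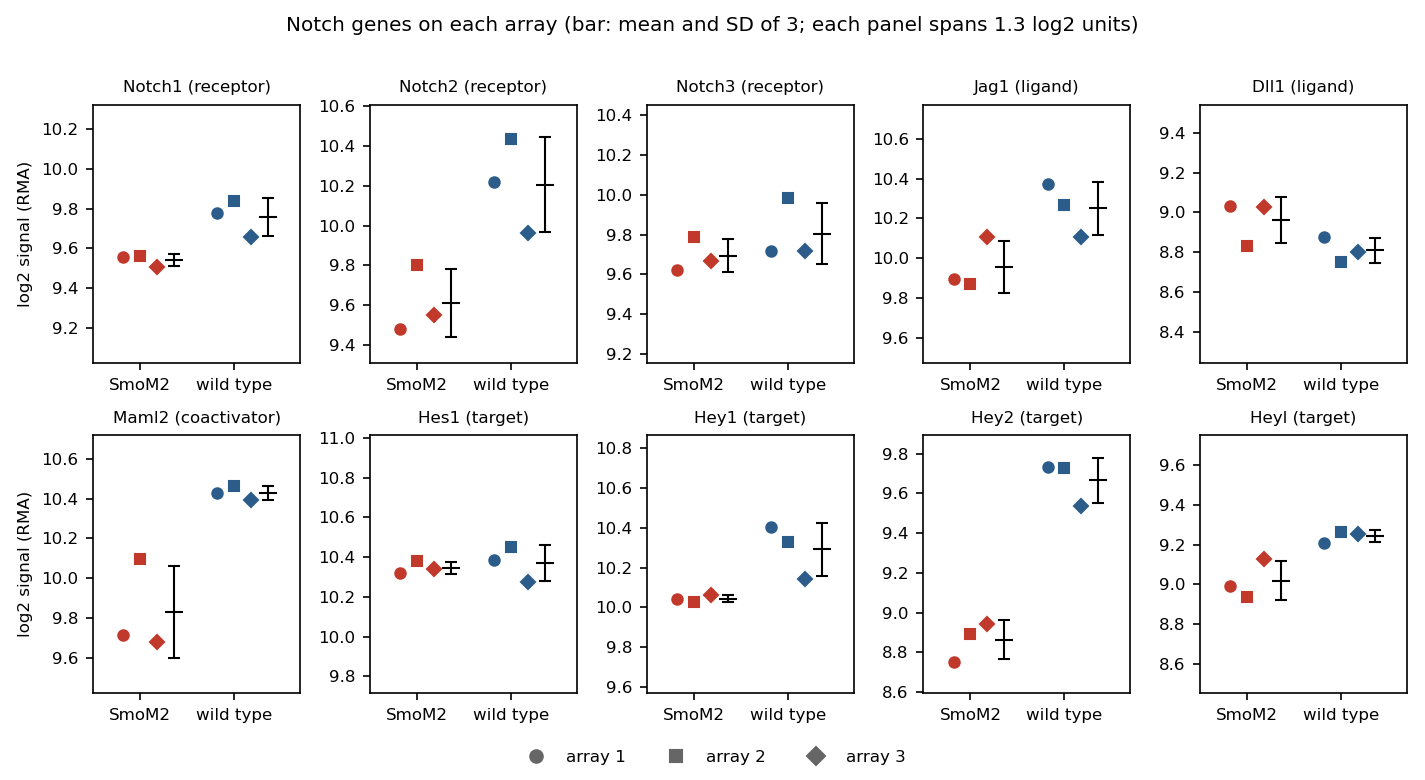
Log2 signal (y axis) of the 10 Notch genes on each array, SmoM2 in red left of wild type in blue, with a marker shape for each replicate number and the mean ± SD of 3 arrays in black. Every panel spans the same number of log2 units. Hey2 and Maml2 show the widest gaps between the groups, 0.59 and 0.30, while the groups overlap in Notch3, Dll1 and Hes1.

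Maml2, a Mastermind-like coactivator that joins the Notch complex on DNA, fell 1.52-fold (log2 change -0.60, SE 0.11, 95% interval of the fold 1.28 to 1.79, limma adjusted p = 0.0365). Its signal was 9.71, 10.09 and 9.68 in SmoM2, against 10.43, 10.46 and 10.39 in wild type. The wild type values spanned 0.07, and SmoM2 array 2 lay closer to them than the other 2 SmoM2 arrays did. Without wild type 1, wild type 2, SmoM2 1 or SmoM2 3 the limma adjusted p was 0.161, 0.127, 0.135 and 0.192, and without wild type 3 or SmoM2 2 it was 0.0470 and 0.00566. Centred on array medians the limma adjusted p was 0.0581, with the mean Y-linked signal as a covariate it was 0.369, and over 21789 single probe sets it was 0.0501.

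Maml2 was the 1 gene of the 10 with a second probe set. That probe set read 9.62, 9.27 and 9.43 in SmoM2, against 9.56, 9.60 and 9.70 in wild type, with overlapping groups (log2 change -0.18, SE 0.09, limma adjusted p = 0.577 over all probe sets). Probe sets of this array are numbered along the chromosomes. Of the 20 named probe sets with the nearest numbers, 20 lay on the chromosome of Maml2 for the first probe set and 2 for the second, so the locus that the second one reads is uncertain. With the mean of both, Maml2 had a log2 change of -0.39 (limma adjusted p = 0.0318). For the other 9 genes, 19 or 20 of the 20 nearest were on the chromosome of the gene.

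Among the receptors, Notch2 differed by as much as Maml2 with a wider spread. Notch2, a receptor needed in the embryo for vessels, kidney and bile ducts, was at 9.48, 9.80 and 9.55 in SmoM2, against 10.22, 10.44 and 9.96 in wild type. The groups did not overlap, but SmoM2 array 2 and wild type array 3 came within 0.16 of each other. Its log2 change was -0.60 (SE 0.13, 95% interval -0.88 to -0.31) and it missed the threshold (limma adjusted p = 0.0726). It passed without wild type 3 and without SmoM2 2 (limma adjusted p = 0.0205 and 0.0438), among genes above the median signal (0.0456) and with an intensity trend in the variance (0.0348). Its log2 change was -0.42 with the mean Y-linked signal as a covariate (limma adjusted p = 0.868).

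Notch1, the receptor with the broadest role in the embryo, was at 9.56, 9.56 and 9.51 in SmoM2, against 9.78, 9.84 and 9.66 in wild type. All SmoM2 values were below all wild type values, by 0.10 at the nearest, and the log2 change of -0.22 (SE 0.07) did not pass (limma adjusted p = 0.285). Notch3, a receptor of pericytes and vascular smooth muscle, was at 9.62, 9.79 and 9.67 in SmoM2, against 9.71, 9.98 and 9.72 in wild type. In both groups array 2 was the highest, the groups overlapped, and the log2 change was -0.11 (SE 0.09, limma adjusted p = 0.765).

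The ligands had changes of opposite sign and neither passed. Jag1, the ligand of vessels and of many inductive contacts, was at 9.89, 9.87 and 10.11 in SmoM2, against 10.38, 10.27 and 10.11 in wild type (log2 change -0.29, SE 0.09, limma adjusted p = 0.261). The groups met at array 3, where they differed by 0.0006. Dll1, the ligand that neural and endocrine progenitors present to their neighbours, was the 1 gene of the 10 with a positive change. It was at 9.03, 8.83 and 9.03 in SmoM2, against 8.87, 8.75 and 8.80 in wild type, with SmoM2 array 2 inside the wild type range (log2 change 0.15, SE 0.08, limma adjusted p = 0.563).

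**Figure D2:**
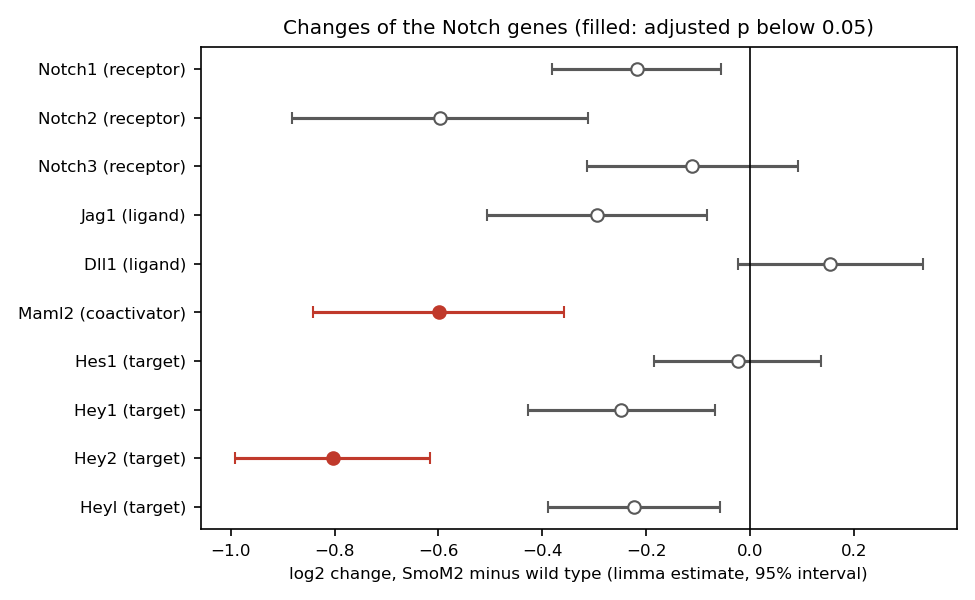
Log2 change (x axis, SmoM2 minus wild type) of the 10 Notch genes with the unadjusted 95% interval of the limma fit, filled red where the adjusted p over all genes was below 0.05. Hey2 lies at -0.80, Maml2 and Notch2 at -0.60, and the intervals of Notch3, Dll1 and Hes1 cross 0.

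Whether related genes changed unequally was read within each array, from the log2 signal of 1 gene minus that of the other, in which a shift common to both cancels. The 8 pairs were chosen with the changes of their genes known, each with the gene of the more negative change first, so the sign of the difference was fixed by that choice. Hey2 minus Hey1 was -1.29, -1.14 and -1.12 in SmoM2, against -0.67, -0.60 and -0.61 in wild type, a difference of -0.56 between their log2 changes. For Hey2 against Heyl this difference was -0.58 and against Hes1 it was -0.78. Notch2 differed from Notch1 by -0.38 and from Notch3 by -0.49 in the same measure. Maml2 differed by -0.64 from Maml1 and by -0.47 from Maml3, its 2 close relatives, and Jag1 from Dll1 by -0.45. An exact two-sided permutation test of 3 against 3 arrays cannot go below p = 0.1, so no pair could pass.

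Deviations from the group means sorted part of the arrays into 2 sets that crossed the genotypes, SmoM2 2 with wild type 1 and 2, and SmoM2 1 with wild type 3, with SmoM2 3 close to neither. Over genes, the deviations of SmoM2 2 correlated at 0.52 with those of wild type 2 and at 0.18 with those of wild type 1, and those of SmoM2 1 and wild type 3 at 0.52. The sets were thus read from the same arrays, and each holds 1 SmoM2 array, so the differences within them are values with no test. Within the first set, SmoM2 2 minus the mean of the wild type pair was -0.84 for Hey2, -0.35 for Maml2, -0.53 for Notch2, -0.45 for Jag1, -0.34 for Hey1, -0.30 for Heyl, -0.25 for Notch1, -0.06 for Notch3, -0.04 for Hes1 and 0.02 for Dll1 (log2 differences). Within the second set, SmoM2 1 minus wild type 3 was -0.78 for Hey2, -0.68 for Maml2, -0.48 for Notch2, -0.22 for Jag1, -0.10 for Hey1, -0.26 for Heyl, -0.10 for Notch1, -0.10 for Notch3, 0.04 for Hes1 and 0.23 for Dll1. A term for the sets in the fit, chosen after seeing the data, left the log2 changes of Hey2, Maml2 and Notch2 at -0.80, -0.60 and -0.60. Their limma adjusted p became 0.000162, 0.00945 and 0.00570, and the genes called over all went from 196 to 663. The term was read from the deviations whose spread it removes. Smaller p-values thus followed in part from its choice, and these passes are not a test. That term set SmoM2 1 and wild type 3 against all other arrays, so SmoM2 3 was counted with the first set though close to neither.

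No other gene of the pathway passed. Of 56 other Notch pathway genes analysed, 0 rose, 0 fell and 56 did not pass in limma, with 7 (12.5%) at an unadjusted p below 0.05, against 10.5% of all genes. Their median log2 change was -0.04, with 34 negative and 22 positive changes, and 11 had all SmoM2 values below all wild type values (10.1% of all genes did).

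By role, the change furthest from 0 in each group was as follows. Notch4, the endothelial receptor, had a log2 change of -0.04 (limma adjusted p = 0.904). Among 5 ligands and ligand-like genes Dlk1, an imprinted gene encoding a relative of the ligands, was at -0.11 (limma adjusted p = 0.664). Among Rbpj and its coactivators, 8 genes in all, the acetyltransferase gene Ep300 was at 10.58, 10.96 and 10.79 in SmoM2, against 11.14, 11.30 and 11.06 in wild type (log2 change -0.39, limma adjusted p = 0.154). The corepressor Spen was at -0.19 (limma adjusted p = 0.503), and Ncstn, which encodes the gamma-secretase subunit nicastrin, at -0.21 (limma adjusted p = 0.377).

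Lfng, a glycosyltransferase that alters which ligands a receptor responds to, was at 8.91, 9.05 and 9.10 in SmoM2, against 9.27, 9.26 and 9.29 in wild type, with no overlap (log2 change -0.25, limma adjusted p = 0.200). Neurl1a, a ubiquitin ligase that acts on ligands, was at 0.14 (limma adjusted p = 0.641). Dtx3, of the deltex family of ubiquitin ligases, was at -0.40 with overlapping groups (limma adjusted p = 0.323). Of 6 other genes of the target group, which were Hes genes and the feedback target Nrarp, 5 had positive changes, and Hes3 had the largest, 0.15 (limma adjusted p = 0.616). Hes3 was at 8.09, 7.81 and 7.93 in SmoM2, against 7.72, 7.78 and 7.88 in wild type. Its groups overlapped, and all its values lay below the array medians.

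**Figure D3:**
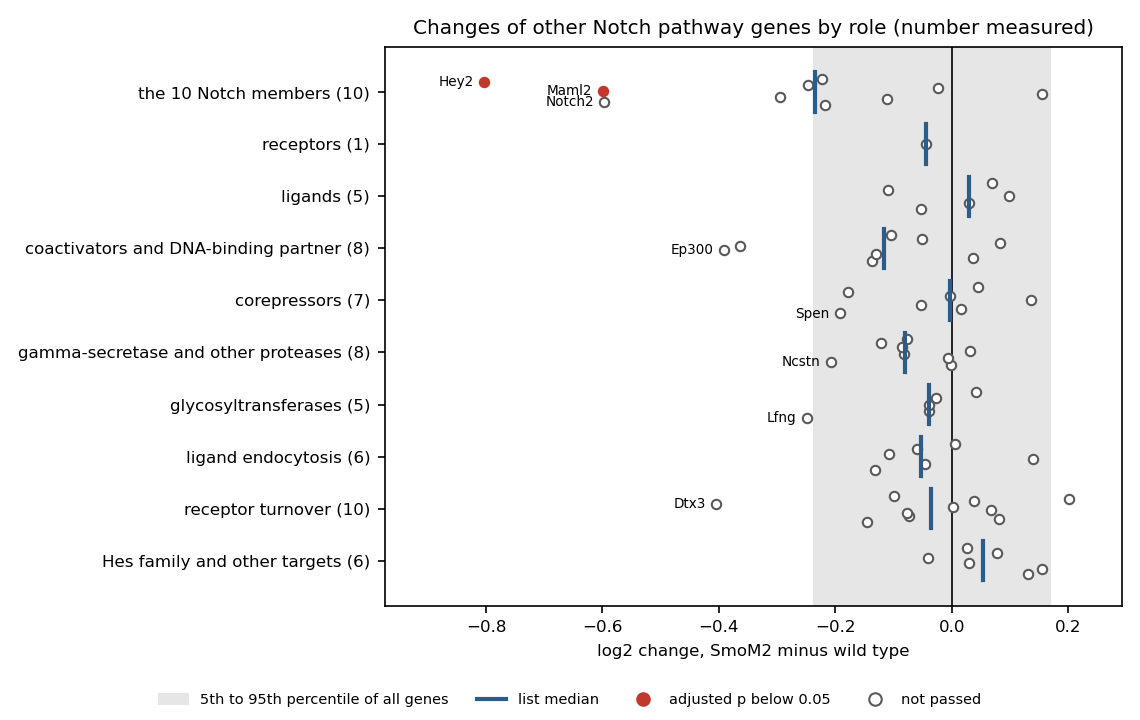
Log2 change (x axis, SmoM2 minus wild type) of the 10 Notch genes and of 56 other pathway genes by role, 1 point a gene, filled red where the adjusted p was below 0.05, with list medians in blue and the 5th to 95th percentile of all genes in grey. The medians of the other roles lie between -0.12 and 0.05, against -0.24 for the 10 Notch genes.

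Markers of other cell types were read beside the Notch genes. Of 9 mural cell markers (pericytes and vascular smooth muscle) 1 fell, 0 rose and 8 did not pass. An unadjusted p below 0.05 was held by 4 of the 9, against 10.5% of all genes. In 5 all SmoM2 values lay below all wild type values, against 10.1% of all genes. The one that fell was Rgs5, a pericyte gene, at 9.19, 9.44 and 9.33 in SmoM2, against 10.16, 10.07 and 9.89 in wild type (1.65-fold lower, limma adjusted p = 0.0113). Rgs5 did not pass without SmoM2 3 or wild type 1, where the limma adjusted p was 0.0762 and 0.0581, nor with the mean Y-linked signal as a covariate (limma adjusted p = 0.185). The mean level of the mural markers ran from 9.11 to 9.16 in SmoM2 and from 9.30 to 9.39 in wild type, with 6 negative and 3 positive changes. Anpep, which epithelium also makes, had a log2 change of -0.40 (limma adjusted p = 0.0574).

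Of 12 endothelial markers 0 passed in limma (4 at an unadjusted p below 0.05, against 10.5% of all genes) and 12 had negative changes, with Kdr, a receptor for VEGF, at -0.36 (limma adjusted p = 0.101) and Tek, the angiopoietin receptor, at -0.32 (limma adjusted p = 0.225). Their mean level ran from 10.26 to 10.40 in SmoM2 and from 10.46 to 10.52 in wild type. Of 12 epithelial markers 6 fell, 0 rose and 6 did not pass, where 0.657% of all genes fell. An unadjusted p below 0.05 was held by 11 of the 12, against 10.5% of all genes. In 11 all SmoM2 values lay below all wild type values, against 10.1% of all genes. The splicing factor Esrp1 was at -0.68 (limma adjusted p = 0.0245) and the tight junction gene Cldn6 at -0.66 (limma adjusted p = 0.0121). Without single arrays Esrp1 passed in 3 of 6 fits (adjusted p up to 0.133) and Cldn6 in 4 (up to 0.0763), and with the Y-linked covariate neither passed (0.427 and 0.190). The mean level of the epithelial markers ran from 9.85 to 9.97 in SmoM2 and from 10.27 to 10.41 in wild type.

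In the other lists Dcx, a microtubule gene of young neurons, fell by 1.07 on the log2 scale (limma adjusted p = 0.00660), as 1 of 10 markers of enteric neurons and glia, whose median was -0.03. It did not pass without SmoM2 3 (0.0562) or with the Y-linked covariate (0.0887). Stmn2, another neuronal gene, was at -0.50 (limma adjusted p = 0.0901). Of these 10 markers 3 had an unadjusted p below 0.05, against 10.5% of all genes. Of 8 mesothelial markers 5 had an unadjusted p below 0.05, against 10.5% of all genes. In 5 all SmoM2 values lay below all wild type values, against 10.1% of all genes. The 2 that fell were the zinc finger gene Bnc1 (-0.72, limma adjusted p = 0.0158) and Wt1 (-0.52, limma adjusted p = 0.0201). Each passed in 3 of 6 fits without 1 array (adjusted p up to 0.0950 for Bnc1 and 0.0989 for Wt1) and neither with the Y-linked covariate (0.267 and 0.212). Of 8 smooth muscle markers 3 rose and 1 fell, where 0.326% of all genes rose and 0.657% fell. An unadjusted p below 0.05 was held by 7 of the 8, against 10.5% of all genes. In 6 all SmoM2 values lay above all wild type values (5.64% of all genes), and in 1 below (10.1%). Myocd, the coactivator of smooth muscle genes, was at 0.86 (limma adjusted p = 0.00111). The actin Actg2 was at 0.69 (limma adjusted p = 0.0405), and it passed in 2 of the 6 fits (up to 0.194) and not with the covariate (0.377). The marker that fell was Des, at -0.54 (limma adjusted p = 0.0263). Of 7 genes of the stomach mesenchyme 3 had an unadjusted p below 0.05, against 10.5% of all genes. The 2 that rose were the forkhead genes Foxf2 (0.91, limma adjusted p = 0.00197) and Foxf1 (0.37, limma adjusted p = 0.0366). Foxf1 passed in 0 of the 6 fits without 1 array (adjusted p 0.0598 to 0.219) and not with the covariate (0.431). None of 6 leukocyte and 4 erythroid markers passed in limma (5 and 3 at an unadjusted p below 0.05, against 10.5% of all genes), and all 10 changes were negative, the furthest from 0 being those of Pf4 (-0.48), Lyz2 (-0.39), Hbb-bh1 (-0.38) and Alas2 (-0.37), with limma adjusted p from 0.0739 to 0.215. The lowest single value in any of these lists was 6.64, that of a mural marker near the dim level. The part of these cell types in the Notch gene differences was not tested.

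**Figure D4:**
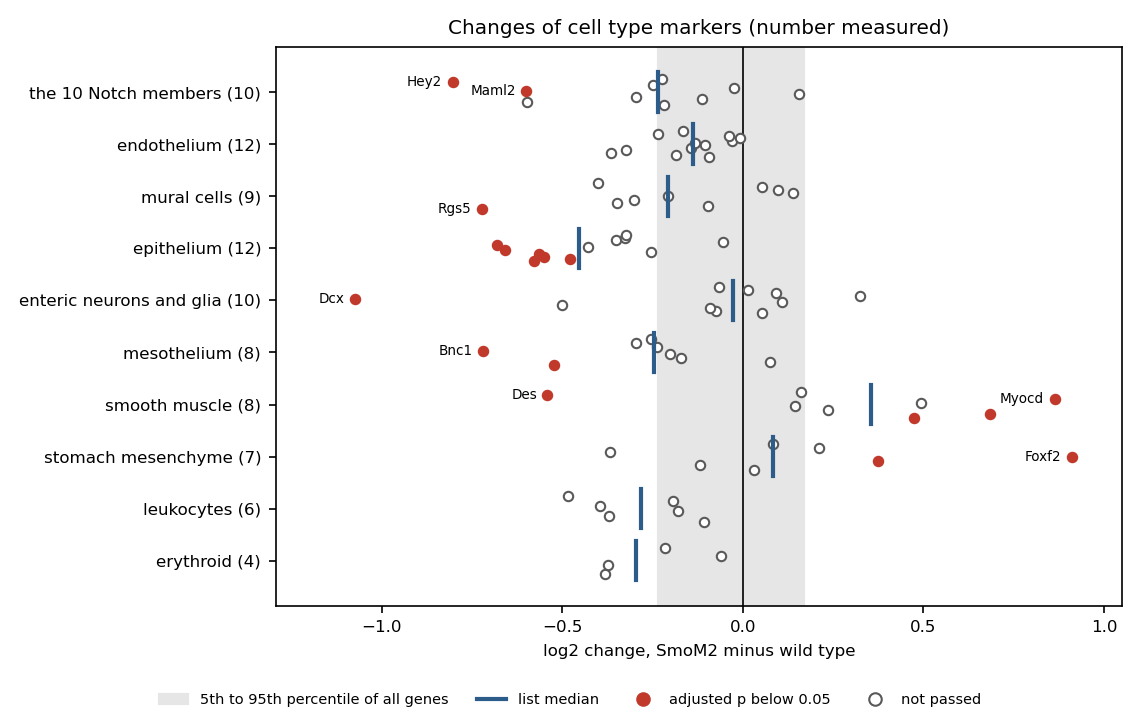
Log2 change (x axis, SmoM2 minus wild type) of the 10 Notch genes and of cell type markers, 1 point a gene, filled red where the adjusted p was below 0.05, with list medians in blue and the 5th to 95th percentile of all genes in grey. Mural, endothelial and epithelial medians lie at -0.21, -0.14 and -0.45, and the smooth muscle median at 0.35. Mesothelial, leukocyte and erythroid medians lie at -0.25, -0.28 and -0.30, that of enteric neurons and glia at -0.03 and that of stomach mesenchyme at 0.08.

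The genes whose pattern over the 6 arrays was most like that of Hey2 were found by the root mean square difference between centred log2 profiles, predicted genes left out. Dbh, the enzyme that makes noradrenaline, was nearest at 0.04. Lhx9, a homeobox gene, followed at 0.06, Rgs5 at 0.07, Rxrg, a retinoid X receptor gene, at 0.07 and Kazald1, a secreted protein gene, at 0.09. Each was chosen for a profile like that of Hey2, so that a similar fall followed from the choice, and the log2 changes were -0.81, -0.71, -0.72, -0.86 and -0.79 in that order. Among the Notch genes, Notch2 (0.16) and Maml2 (0.18) were nearest to Hey2 and Dll1 (0.49) was furthest.

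The genes next to the 10 on the chromosome, 20 in all and 1 on each side, showed no call. In limma 0 of 20 passed (5 at an unadjusted p below 0.05, against 10.5% of all genes), with log2 changes from -0.50 to 0.20 and a lowest adjusted p of 0.0901. Beside Hey2 these were Ncoa7, at -0.17 (limma adjusted p = 0.419), and Hddc2, at -0.05 (limma adjusted p = 0.881), chosen for their place.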

How the data were processed

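Total RNA of 6 mouse stomach samples was hybridised to 6 arrays, 3 SmoM2 and 3 wild type, grouped by sample titles and genotype labels. Per the submitters' processing notes the authors used RMA and affy, and they deposited log2 signals of 35556 probe sets. RMA subtracts background, makes array distributions alike and summarises probes, so a change in total RNA would not show and small signals are compressed. The number of arrays limits the precision.

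Probe sets were named through the platform annotation (21789 with 1 symbol, 1621 with several or none and 12146 not listed). Their gene IDs were checked against RefSeq genes of GRCm38.p6, which held 21698, and 0 symbols changed. A gene was read from its brightest probe set. The 2 genotypes were compared by limma's lmFit and eBayes (version 3.58.1, R 4.3.3), with p-values adjusted by Benjamini-Hochberg over 19938 genes at 0.05, and the fit was tested on simulated data. The exact permutation tests used SciPy 1.17.1.

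The 10 genes, the pathway and marker lists, the 13 kinds of alternative and the naming rule were chosen with earlier results of these data known. The rule named all 10 genes, Hhip, Ptch1 and Gli1, pathway genes past the threshold and the largest change per role, the 2 largest changes per marker list, and the 5 genes most like Hey2. Barx1, Nkx3-2, Crebbp, Des and the neighbours of Hey2 stand outside it. Some genes of the lists are not reported here.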

Additional observations from a re-analysis of the deposited data

How the results depend on the processing

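Hey2 kept its direction in 19 alternatives and passed in 16. It did not pass with the mean Y-linked signal as a covariate (log2 change -0.65), without variance moderation (-0.80) or in a fit on the linear signal (-0.80), and without single arrays it ran from -0.87 to -0.75. The count of 2 Notch genes past the threshold was 1 with every probe set as its own row and with centring on array medians. It was 3 among genes above the median, with an intensity trend, with the replicate block and with a term for 2 sets of arrays. Each of these settings added Notch2 (limma adjusted p = 0.0456, 0.0348, 0.000215 and 0.00570). With array weights, whose estimation stopped before its tolerance, the count was 7, of which 6 were lower and 1, Dll1, was higher. The count was 0 with the Y-linked covariate, without moderation and on the linear signal, where 3, 6 and 7 had an unadjusted p below 0.05. Without single arrays it was 1 to 3, with Hey2 alone in 4 of the 6 fits and Maml2 and Notch2 beside it without wild type 3 or SmoM2 2. The 0 other pathway genes became 15 with array weights, 3 with the replicate block and 2 with a term for 2 sets of arrays. The 196 changed genes became 698 with the replicate block, 336 with an intensity trend, 4110 with array weights, 22 with the Y-linked covariate, 0 without moderation (1873 at an unadjusted p below 0.05), 24 on the linear signal and 663 with the sets, and 32 to 247 without single arrays (51 without wild type 1, 62 without wild type 2, 80 without SmoM2 1, 32 without SmoM2 3).

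Signs near 0 turned. Hes1, at -0.02, was at 0.0252 with repeated quantile normalization, 0.0045 with centring on array medians, 0.0495 with the Y-linked covariate, and from -0.0723 to 0.0171 without single arrays. Notch4, at -0.04, ran from -0.0883 to 3.83e-05 and Barx1, at 0.03, from -0.0448 to 0.106 without single arrays, and Barx1 was at -0.0296 with array weights. The cause was not tested for any of these changes.

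Groups shared replicate numbers, but the deviations of same-numbered arrays from their group means correlated over genes at -0.10, 0.52 and 0.06, so the numbers were not taken as pairs, and SmoM2 1 correlated best with wild type 3, at 0.52. With the replicate block Hey2, Maml2 and Notch2 passed, with log2 changes of -0.80, -0.60 and -0.60, and Crebbp, Dtx3 and Ep300 were the 3 other pathway genes (-0.36, -0.40 and -0.39). The term for the sets was chosen after seeing the data, from the same deviations whose spread it removes. Crebbp and Ep300 passed with it, which is not a test of them, nor is the pass of Notch2 in that fit.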
